A study of Mus musculus with 8 samples.

Results

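Keratin genes, 10 in number and most of them of the epidermis between the hair follicles, were followed across the 8 libraries of the series. They were *Krt5*, *Krt14* and *Krt15*, which mark basal keratinocytes, *Krt1*, *Krt10*, *Krt2*, *Krt77*, *Krt78* and *Krt80*, which belong to suprabasal layers, and *Krt79*, a keratin of the upper hair follicle. Members were the rows of the gene count table whose Ensembl identifiers carry these 10 symbols in the mouse GENCODE annotation, and all 10 were found among 55416 genes. The dorsal epidermis of mice at postnatal day 4 was profiled, with 4 control libraries (replicates A1, B1, C1 and C6) and 4 libraries labelled RoraEKO (replicates A3, B4, C2 and C3). RoraEKO mice carried floxed *Rora* alleles together with a keratin 14 promoter-driven Cre transgene (strain B6N.Cg-Tg(KRT14-cre)), so that the nuclear receptor RORα was deleted in keratin 14-expressing cells and their descendants. The controls were littermates that the labels call WT, and whether they carried floxed alleles or the Cre is not given in the sources used here. Epidermis was separated from dermis by brief heating and no cell type was sorted.

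Keratins are the filament proteins of epithelial cells, and each filament is built from pairs of an acidic (type I) and a basic or neutral (type II) keratin. Basal keratinocytes, the dividing cells on the basement membrane, make the pair keratin 5 and keratin 14, and they switch to keratin 1 and keratin 10 when they leave the basal layer and begin to differentiate. Keratin 2, keratin 77, keratin 78 and keratin 80 are type II keratins of differentiating cells, and in the mouse keratin 2 is best known from the skin of the ear, the sole and the tail.

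The members sit in the keratin gene clusters of chromosomes 11 and 15 of GRCm39, all on the minus strand. The type I genes are on chromosome 11, with *Krt10* at 99276072 to 99280195, *Krt15* at 100022584 to 100026775 and *Krt14* at 100093988 to 100098490. The type II genes are on chromosome 15, with *Krt80* at 101245325 to 101268043, *Krt5* at 101615505 to 101621346, *Krt2* at 101719124 to 101726605, *Krt1* at 101753861 to 101759229, *Krt77* at 101767166 to 101778245, *Krt79* at 101837767 to 101848759 and *Krt78* at 101854436 to 101862722. *Krt77* lies next to *Krt1*, with 7937 bases between them, and *Krt76* is its neighbour on the other side, 14541 bases away. *Krt5*, *Krt10* and *Krt80* overlap noncoding genes of the opposite strand, which were at 0 to 4.56 CPM on average, and without the strand setting of the counting their reads cannot be told apart.

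Promoter sequences were available for 7 of the 10 members in the RefSeq table of GRCm38.p6. The 250 bases before the start site are shown for *Krt77*, the member that passed the cutoffs given later, for *Krt10* and *Krt2*, the other members whose promoter holds the letters TATA at the place of a TATA box, and for *Krt78*, which holds the core half-site AGGTCA to which ROR receptors bind. Capitals mark TATA (read the same on both strands, and searched only from 40 to 20 bases before the start site) in the first 3 promoters and AGGTCA in the last.
Krt77: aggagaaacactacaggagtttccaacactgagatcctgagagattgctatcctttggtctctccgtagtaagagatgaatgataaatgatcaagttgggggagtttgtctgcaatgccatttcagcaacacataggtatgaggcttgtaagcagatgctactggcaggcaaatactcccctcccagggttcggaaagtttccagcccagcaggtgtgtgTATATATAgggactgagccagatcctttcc
Krt10: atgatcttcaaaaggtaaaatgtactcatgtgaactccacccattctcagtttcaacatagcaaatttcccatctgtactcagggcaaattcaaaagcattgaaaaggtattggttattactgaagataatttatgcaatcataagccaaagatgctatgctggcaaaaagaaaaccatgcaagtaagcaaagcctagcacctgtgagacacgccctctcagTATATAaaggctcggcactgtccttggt
Krt2: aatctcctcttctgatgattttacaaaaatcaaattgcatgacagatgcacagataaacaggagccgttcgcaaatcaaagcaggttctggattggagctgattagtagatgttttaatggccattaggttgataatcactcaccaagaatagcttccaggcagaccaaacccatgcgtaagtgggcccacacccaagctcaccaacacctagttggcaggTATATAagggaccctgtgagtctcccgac
Krt78: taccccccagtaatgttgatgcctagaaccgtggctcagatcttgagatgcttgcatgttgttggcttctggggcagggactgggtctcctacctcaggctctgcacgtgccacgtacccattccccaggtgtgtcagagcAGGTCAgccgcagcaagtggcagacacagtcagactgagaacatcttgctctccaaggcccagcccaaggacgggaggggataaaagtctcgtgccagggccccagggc
These stretches are chr15:101869706-101869955 for *Krt77*, chr11:99389365-99389614 for *Krt10*, chr15:101818170-101818419 for *Krt2* and chr15:101954288-101954537 for *Krt78*, on the minus strand of GRCm38.p6. TATA began 30 bases before the start site in *Krt77*, 28 bases before it in *Krt10* and 29 bases before it in *Krt2*, and in each of them the runs overlap. It was found in that place in 5.34% of 32851 promoters in the table and not in *Krt5*, *Krt14*, *Krt78* or *Krt79*. Only the letters TATA were searched, so other forms of a TATA box are not covered. AGGTCA, searched on both strands of the 250 bases, was found only in *Krt78* among the 7 members, 109 bases before the start site, against 14% of the 32851 promoters. Its absence from the other 6 says only that these letters are not in this window. *Krt15*, *Krt1* and *Krt80* had no entry.

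The libraries held 17286903 to 26705533 counts each, so that 3 counts corresponded to 0.113 to 0.196 CPM (counts per 1000000 counts, scaled with TMM factors). *Rora* itself was at 157.7, 193.4, 186.6 and 308.7 CPM in the controls A1, B1, C1 and C6 and at 153.7, 188.6, 236.8 and 205.8 CPM in the libraries labelled RoraEKO A3, B4, C2 and C3. Its log2 fold change was -0.11 (SE 0.245, adjusted p = 0.877, edgeR quasi-likelihood test), so its counts did not separate the genotypes, and the labels alone give them. Counts over a whole gene do not resolve a deleted exon. Controls C1 and C6 had *Xist* at 415.8 and 527.4 CPM and *Ddx3y* at 0 CPM, whereas the other 6 libraries had *Xist* at or below 0.0546 CPM and *Ddx3y* between 15.7 and 24.1 CPM. By *Xist*, a transcript of female cells, and *Ddx3y*, a gene of the Y chromosome, C1 and C6 were female and the other 6 libraries male. All libraries labelled RoraEKO were thus male, so sex was unbalanced between the genotypes. The fits with *Xist* as a covariate and without C1 and C6 bear on this imbalance.

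Over the whole table, 302 of 13147 genes tested (2.3%) were higher and 423 (3.22%) were lower in the libraries labelled RoraEKO past both cutoffs (adjusted p 0.05, fold change 1.5), which is 5.51% in either direction. Without controls C1 and C6 the numbers were 147 and 167. Of the 10 keratins, 9 had enough counts to be tested. Of these 9, 1 passed the cutoffs, *Krt77*, which was lower, and 0 were higher with the edgeR quasi-likelihood test. An unadjusted p under 0.05 was reached by 3 of the 9 in that test, and the share of all genes at this level is not given here. DESeq2 called *Krt77* lower and *Krt1* and *Krt10* higher, and over the whole table it called 478 genes higher and 553 lower. The genotypes did not overlap for 4 of the 9 (*Krt15*, *Krt1*, *Krt10* and *Krt77*), against 12.9% of all genes tested. The median log2 fold change of the 9 was 0.03, beside -0.04 over all genes tested, with 5 above 0 and 4 below.

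**Figure D1:**
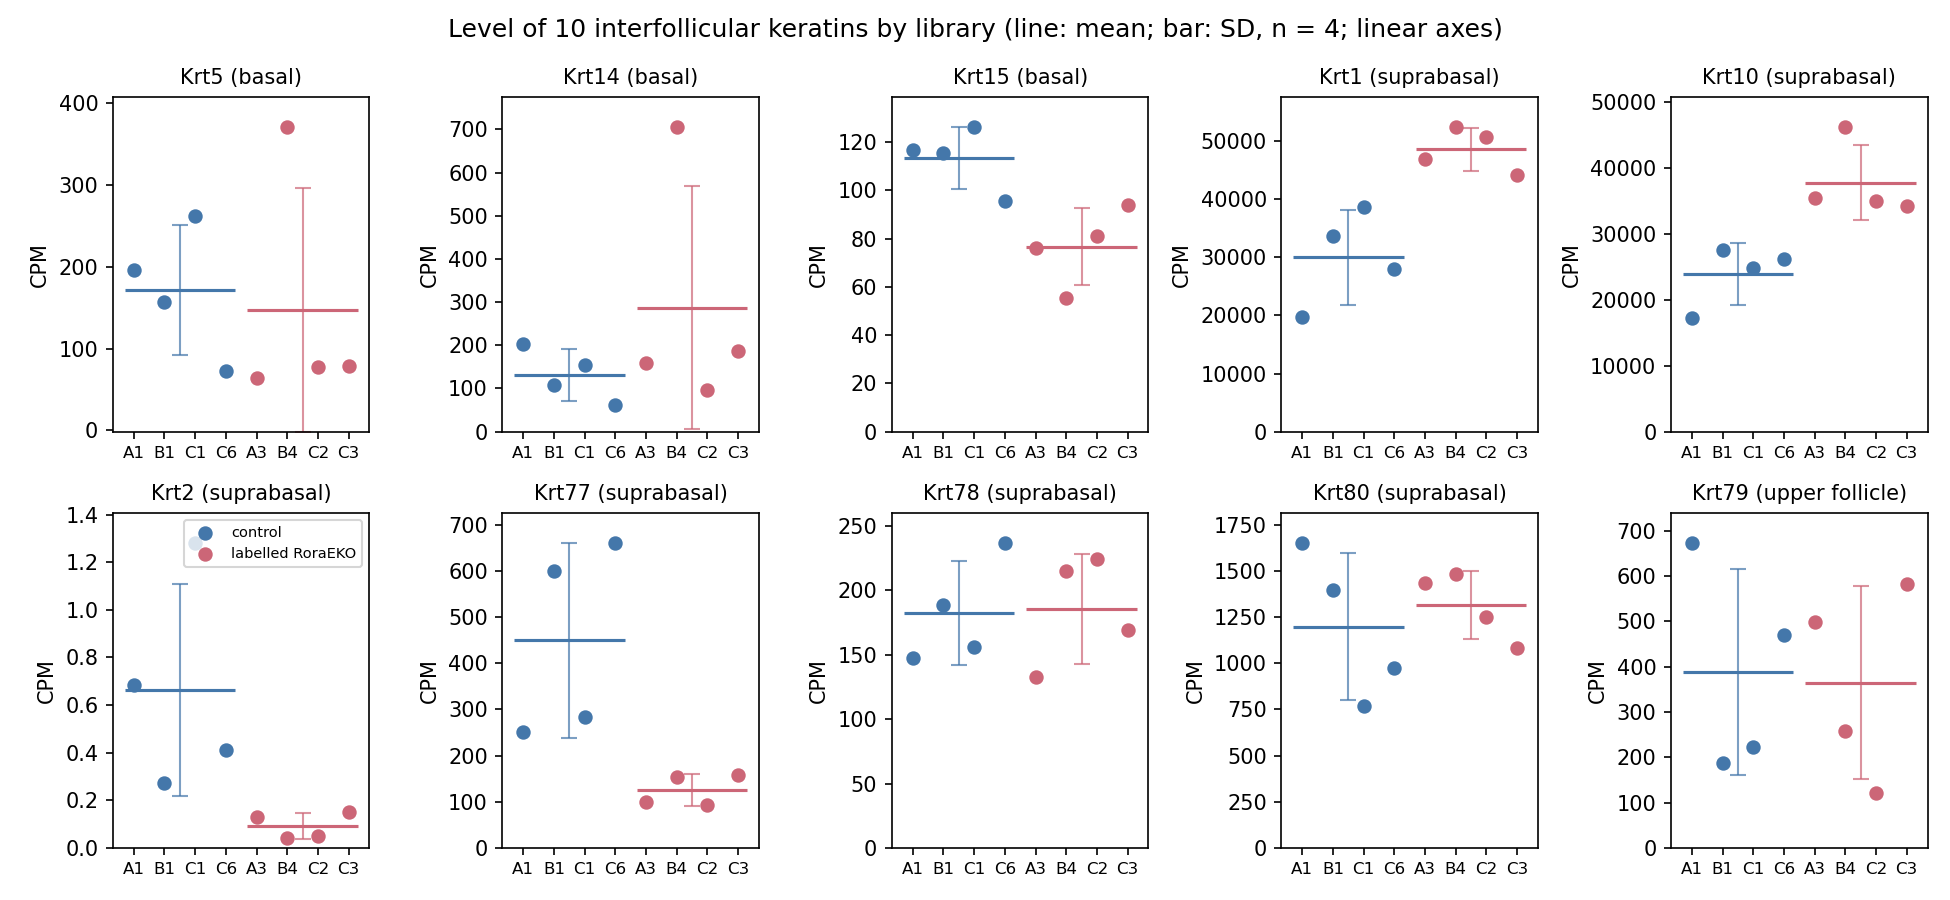
Level of each of the 10 keratins in CPM (linear axes) in every library, with control in blue and libraries labelled RoraEKO in red; horizontal lines are means and vertical bars SD (n = 4). *Krt1* and *Krt10* are higher and *Krt15* and *Krt77* lower in all 4 red libraries, and for *Krt5* and *Krt14* replicate B4 lies far above the other 3.

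*Krt77* encodes a type II keratin related to keratin 1. It was at 251.8, 600.8, 284.4 and 659.9 CPM in the controls A1, B1, C1 and C6, and at 99.4, 153.9, 93.4 and 158.3 CPM in the libraries labelled RoraEKO A3, B4, C2 and C3. The lowest control was therefore above the highest RoraEKO library, although the controls themselves fell into a lower and a higher pair. The means were 449.2 ± 211 CPM (SD, n = 4) and 126.3 ± 34.6 CPM (SD, n = 4), and the log2 fold change was -1.83 (SE 0.412, 95% interval -2.50 to -0.98 from limma, adjusted p = 0.0139, edgeR quasi-likelihood test). The call was lost, with the direction kept, without RoraEKO replicate C2 (log2 fold change -1.64, adjusted p = 0.0574), without controls C1 and C6 (log2 fold change -1.71, adjusted p = 0.0582) and with *Xist* as a covariate (log2 fold change -1.74, adjusted p = 0.0532).

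*Krt1* and *Krt10* encode the main keratin pair of the spinous layers, and they carried most of the counts of the 10 members. *Krt1* was at 19686, 33623, 38600 and 27953 CPM in the controls A1, B1, C1 and C6 and at 46914, 52399, 50735 and 44216 CPM in the libraries labelled RoraEKO A3, B4, C2 and C3. *Krt10* was at 17165, 27549, 24736 and 26130 CPM in the same controls and at 35454, 46176, 34979 and 34246 CPM in the libraries labelled RoraEKO. Each RoraEKO library was above each control for both genes, and control A1 was the lowest library for both. The log2 fold change was 0.70 for *Krt1* (SE 0.217, 95% interval -0.50 to 1.98 from limma, adjusted p = 0.287, edgeR quasi-likelihood test). For *Krt10* it was 0.66 (SE 0.185, 95% interval -0.44 to 1.78 from limma, adjusted p = 0.274, edgeR quasi-likelihood test). Neither gene passed the cutoffs in that test. The SEs, intervals and adjusted p values come from separate calculations. DESeq2 gave adjusted p values of 0.0111 for *Krt1* and 0.00763 for *Krt10*, and both genes passed the cutoffs there. The likelihood ratio test and the exact test of edgeR called *Krt10* (adjusted p = 0.0462 and 0.0475) but not *Krt1* (adjusted p = 0.0513 and 0.053). Whether the *Krt1* and *Krt10* difference passed the cutoffs thus depended on the test.

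The share of all counts that fell in the 10 keratins followed *Krt1* and *Krt10*. It was 3.97%, 6.60%, 6.92% and 5.65% in the controls A1, B1, C1 and C6, and 7.52%, 10.99%, 7.91% and 8.58% in the libraries labelled RoraEKO A3, B4, C2 and C3. The lowest RoraEKO library was above the highest control, and the means were 5.79% ± 1.33 (SD, n = 4) and 8.75% ± 1.56 (SD, n = 4). The widest of the 95% Wilson intervals of these shares reached 0.013 percentage points to either side, which covers counting error only and is far smaller than the spread between libraries. *Krt1* and *Krt10* together made up 91.9% to 97% of the counts of the 10 genes in the controls and 96.8% to 97.8% in the libraries labelled RoraEKO. *Krt1* took 3.08% ± 0.92 of all counts in the controls and 4.77% ± 0.633 in the libraries labelled RoraEKO, and *Krt10* took 2.44% ± 0.508 and 3.73% ± 0.868 (mean ± SD, n = 4). No test was run on these shares. The 3 basal keratins together took 0.0228% to 0.0576% of all counts in the controls, 0.122% in RoraEKO replicate B4 and 0.023% to 0.0381% in the other 3 libraries labelled RoraEKO.
Mitochondrial genes and their nuclear copies also took a large share of each library, and that share varied beside the keratins. It was 20%, 25.5%, 29.3% and 33.8% in the controls A1, B1, C1 and C6 and 31.1%, 13.6%, 30.5% and 27.7% in the libraries labelled RoraEKO A3, B4, C2 and C3, so that replicate B4, with the highest keratin share, had the lowest mitochondrial share. Of the counts outside the mitochondrial genes, a denominator chosen after seeing the data, the 10 keratins took 4.97% to 9.80% in the controls and 10.9% to 12.7% in the libraries labelled RoraEKO. The genotypes stayed apart on this scale as well, with means of 8.04% ± 2.12 and 11.7% ± 0.771 (SD, n = 4).

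**Figure D2:**
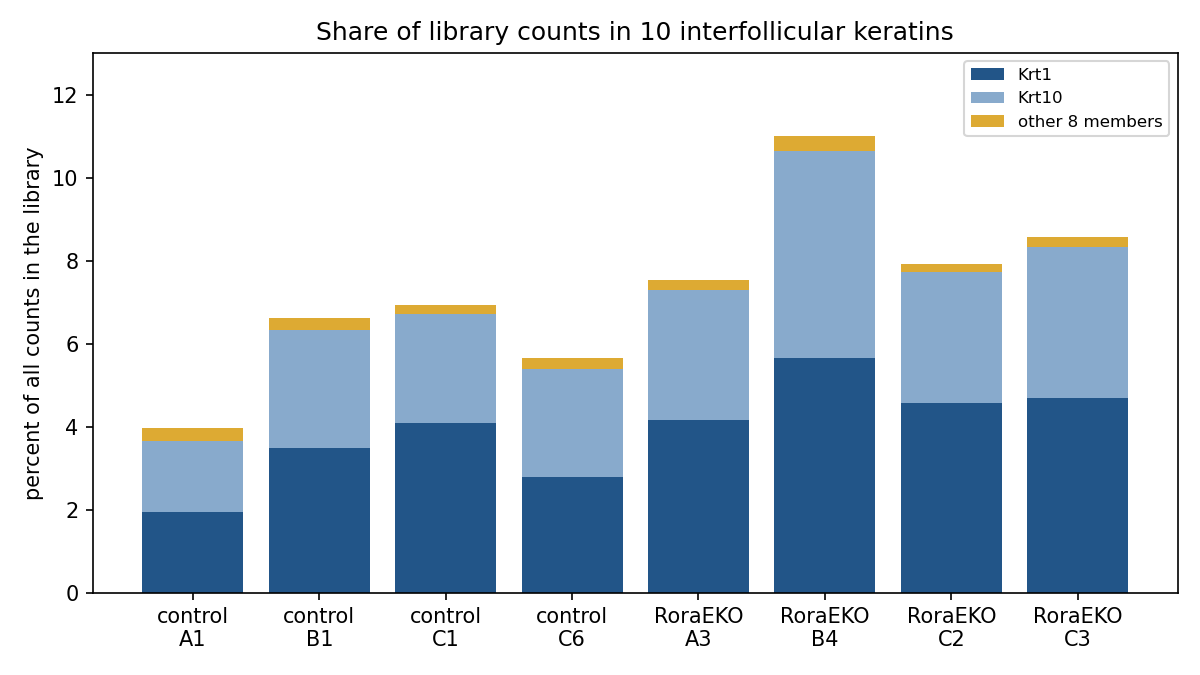
Percent of all counts of each library that fell in *Krt1*, *Krt10* and the other 8 keratins (stacked bars from 0, 1 bar per library). The 4 libraries labelled RoraEKO run from 7.52% to 10.99%, above the 3.97% to 6.92% of the controls, and nearly all of each bar is *Krt1* and *Krt10*.

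The basal pair *Krt5* and *Krt14* varied widely between libraries of the same genotype. *Krt5* was at 195.9, 156.3, 262.5 and 72.1 CPM in the controls A1, B1, C1 and C6, and at 63.4, 371, 78 and 78.1 CPM in the libraries labelled RoraEKO A3, B4, C2 and C3. Its partner *Krt14* was at 202.6, 108, 155 and 61.1 CPM in the same controls and at 158.7, 705.7, 96.2 and 186.8 CPM in the libraries labelled RoraEKO. Replicate B4 was the highest library for both genes, control C6 was the lowest for *Krt14*, and the genotypes overlapped. The log2 fold change was -0.22 for *Krt5* (SE 0.713, adjusted p = 0.918) and 1.12 for *Krt14* (SE 0.718, adjusted p = 0.382) in the edgeR quasi-likelihood test. Without replicate B4 the values were -1.23 (adjusted p = 0.128) and 0.16 (adjusted p = 0.904), so the size of both rested on that library, and the sign for *Krt5* also changed, to 0.10 without RoraEKO replicate A3, 0.07 without RoraEKO replicate C2 and 0.06 without control C1.

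*Krt15*, a type I keratin of basal cells and of the follicle bulge, did not follow replicate B4. Its levels were 116.6, 115.6, 126.2 and 95.6 CPM in the controls A1, B1, C1 and C6, and 76.1, 55.4, 80.9 and 93.9 CPM in the libraries labelled RoraEKO A3, B4, C2 and C3. The genotypes did not overlap, although control C6 and RoraEKO replicate C3 lay close together, and B4 was the lowest library. The means were 113.5 ± 12.8 CPM and 76.6 ± 16 CPM (SD, n = 4), with a log2 fold change of -0.57 (SE 0.181, 95% interval -0.96 to -0.21 from limma, adjusted p = 0.0884, edgeR quasi-likelihood test). Both cutoffs were missed, and over the alternatives the log2 fold change ran from -0.68 to -0.44 and the adjusted p from 0.0482 with DESeq2 to 0.229.

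Other genes of basal keratinocytes were at low levels, and their sum was highest in replicate B4. In a list of 10 basal markers, the summed level was 161.9, 119.2, 129.1 and 78.8 CPM in the controls A1, B1, C1 and C6 and 90.1, 170.5, 75.5 and 82.6 CPM in the libraries labelled RoraEKO A3, B4, C2 and C3. The median log2 fold change was -0.4, with 8 genes below 0 and 2 above. Of the 10 genes, 0 passed the cutoffs (edgeR quasi-likelihood test, with 0 at an unadjusted p under 0.05 and 0 called by DESeq2). *Col17a1*, a collagen of the hemidesmosome, was at 53.6, 28.3, 41.8 and 13.4 CPM in the controls and at 12.5, 52.1, 10.6 and 15.1 CPM in the libraries labelled RoraEKO, again with B4 apart from the other 3. *Trp63*, the transcription factor of the basal state, lay between 33.4 and 53.9 CPM in all 8 libraries. In bulk epidermis fewer basal cells and less RNA per basal cell cannot be told apart, and the part of basal cell content in the *Krt5* and *Krt14* values was not tested.

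The balance within the *Krt5* and *Krt14* pair separated the genotypes although neither gene did. The ratio of *Krt5* to *Krt14* counts was 0.967, 1.45, 1.69 and 1.18 in the controls A1, B1, C1 and C6, and 0.399, 0.526, 0.811 and 0.418 in the libraries labelled RoraEKO A3, B4, C2 and C3. The geometric mean was 1.29 in the controls and 0.517 in the libraries labelled RoraEKO, which is 2.5-fold lower (log2 difference -1.32, SE 0.292). A two-sided exact permutation test gave p = 0.0286, the smallest value that 4 against 4 libraries allow, and 0.0644 after Benjamini-Hochberg adjustment over the 9 ratios examined. The adjusted value depends on the other ratios at this smallest p, those of *Krt77* to *Krt1*, *Krt77* to *Krt10* and *Krt2* to *Krt10*. Leaving out any 1 library moved the log2 difference only between -1.54 and -1.19, and it was -1.33 without B4. A stretch of the *Krt14* transcript is identical to *Krt16*, covering 2.68% of its 100-base windows, and 2.37% of those of *Krt5* are identical to *Krt6a* or to the gene *Gm5478*. *Krt16* was at 96.2 to 192.7 CPM in the controls and at 1029.9 to 2609.5 CPM in the libraries labelled RoraEKO, highest in B4, and *Krt6a* at 3.50 to 9.87 and 15.3 to 110.7 CPM. How far reads of these genes were assigned to *Krt14* or *Krt5* was not tested. The other 8 members shared no 100-base window with another gene.

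**Figure D3:**
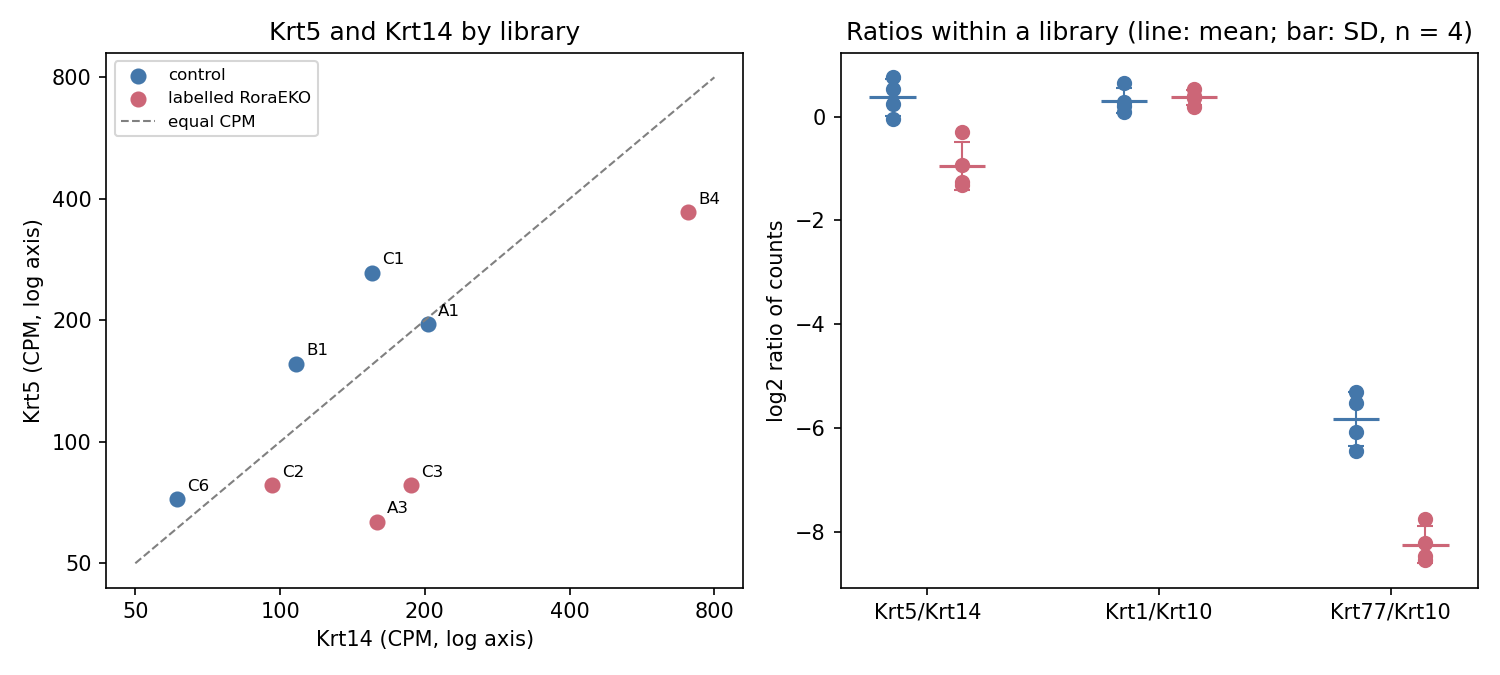
Left, *Krt5* against *Krt14* in each library (CPM, both axes log, dashed line at equal CPM); right, log2 ratio of counts within each library for 3 keratin pairs, with control in blue, libraries labelled RoraEKO in red, lines at the mean and bars at SD (n = 4). All 4 red libraries lie below the dashed line and only control A1 among the blue ones, whereas *Krt1*/*Krt10* overlaps between genotypes.

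The spinous pair kept its balance. The ratio of *Krt1* to *Krt10* counts was 1.15, 1.22, 1.56 and 1.07 in the controls A1, B1, C1 and C6 and 1.32, 1.13, 1.45 and 1.29 in the libraries labelled RoraEKO A3, B4, C2 and C3, with a log2 difference of 0.07 (SE 0.139, exact permutation p = 0.657, 0.739 adjusted). *Krt77* did not keep pace with this pair. Its ratio to *Krt10* had a geometric mean of 0.0175 in the controls and 0.00328 in the libraries labelled RoraEKO, 5.33-fold lower (log2 difference -2.41, SE 0.316, exact permutation p = 0.0286, 0.0644 adjusted), and its ratio to its neighbour *Krt1* was 5.58-fold lower (log2 difference -2.48, exact permutation p = 0.0286, 0.0644 adjusted). These ratios contain the *Krt77* difference already described. Ratios that span the layers overlapped between the genotypes, and their values moved with single libraries, RoraEKO replicate B4 among them. The ratio of *Krt10* to *Krt14* ran from 84.7 to 427.9 in the controls and from 65.4 to 363.7 in the libraries labelled RoraEKO (log2 difference -0.15, SE 0.72). The difference was 0.33 without B4, 0.23 without control C6 and 0.27 without controls C1 and C6. In the other direction, it was -0.55 without control A1 and -0.50 without RoraEKO replicate C2. The ratio of *Krt1* to *Krt5* ran from 100.5 to 387.9 in the controls and from 141.2 to 740.4 in the libraries labelled RoraEKO (log2 difference 1.24, SE 0.694, exact permutation p = 0.143, 0.214 adjusted). The lowest RoraEKO value, 141.2, was that of B4, and without B4 the genotypes did not overlap (log2 difference 1.79). The ratio of *Krt15* to *Krt14* differed by -1.41 on the log2 scale (SE 0.809, exact permutation p = 0.0857, 0.154 adjusted) and that of *Krt79* to *Krt14* by -0.96 (SE 0.913, exact permutation p = 0.314, 0.404 adjusted). Without B4 these differences were -0.68 and -0.29. The genotypes overlapped for both, but not for *Krt15* to *Krt14* without RoraEKO replicate C2 (log2 difference -1.82).

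*Krt2* was close to the limit of detection and was not tested. Its counts were 18, 5, 27 and 11 in the controls A1, B1, C1 and C6 and 2, 1, 1 and 3 in the libraries labelled RoraEKO A3, B4, C2 and C3. Every control was above every RoraEKO library in CPM, with 0.273 to 1.28 CPM against 0.0411 to 0.15 CPM. All RoraEKO libraries were at or under 3 counts, and the control mean of 0.662 CPM was 4.32-fold above the mean level of 3 counts in those libraries. This figure allows neither for counting error nor for the spread of the controls, so it is not a firm lower bound. When all genes with at least 1 count were tested, *Krt2* passed the cutoffs (adjusted p = 0.0453, edgeR quasi-likelihood test). The ratio of *Krt2* to *Krt10* rests on these few counts, and its groups did not overlap either (exact permutation p = 0.0286, 0.0644 adjusted).

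The remaining 3 members did not separate the genotypes. *Krt80*, a type II keratin of differentiating cells, was at 1650.9, 1397.9, 769 and 976.9 CPM in the controls A1, B1, C1 and C6 and at 1437.9, 1485.1, 1252.9 and 1085.6 CPM in the libraries labelled RoraEKO A3, B4, C2 and C3. Its log2 fold change was 0.13 (SE 0.27, 95% interval -0.38 to 0.75, adjusted p = 0.867), with the RoraEKO libraries inside the range of the controls, and -0.16 without controls C1 and C6 (adjusted p = 0.766). *Krt78*, a type II keratin of suprabasal cells, was at 147.3, 188.7, 156.4 and 236.7 CPM in the controls and at 133, 215, 224.8 and 169.5 CPM in the libraries labelled RoraEKO. Its log2 fold change was 0.03 (SE 0.233, 95% interval -0.44 to 0.48, adjusted p = 0.976). *Krt79*, which marks the upper hair follicle, was at 672.1, 187.7, 223.4 and 469.5 CPM in the controls and at 498.5, 258.4, 121.3 and 581.3 CPM in the libraries labelled RoraEKO. Its log2 fold change was -0.09 (SE 0.676, 95% interval -1.35 to 1.08, adjusted p = 0.964), and the intervals leave room for a change in either direction, most of all for *Krt79*. The adjusted p values of these 3 genes come from the edgeR quasi-likelihood test, and intervals are from limma.

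Levels of the members were compared with each other only per length. Per kilobase (kb) of exon, *Krt10* and *Krt1* stood apart from the other members, with 11234 ± 2177 and 6787 ± 1838 CPM per kb (SD, n = 4) in the controls and 17731 ± 2663 and 11000.2 ± 838 CPM per kb in the libraries labelled RoraEKO. *Krt80* followed at 187.5 ± 62.4 CPM per kb in the controls, then *Krt77* at 148 ± 69.5, *Krt79* at 81.7 ± 47.8, *Krt5* at 77.7 ± 36, *Krt14* at 70.3 ± 32.5, *Krt15* at 63.4 ± 7.17 and *Krt78* at 53 ± 11.8 CPM per kb, with *Krt2* last at 0.253 ± 0.17 CPM per kb. From *Krt80* to *Krt78* the ranges of mean ± SD of neighbouring genes overlapped, although those of the first and the last of these genes, *Krt80* and *Krt78*, did not. In the libraries labelled RoraEKO *Krt77* moved from the fourth to the ninth place, at 41.6 ± 11.4 CPM per kb, next to *Krt15* at 42.8 ± 8.93 CPM per kb. The order depends on the length used. With the longest coding transcript in place of all annotated exons, *Krt1* came before *Krt10* in the controls, with 12206 ± 3306 and 11341 ± 2198 CPM per kb, and 6 of the 10 genes kept their place.

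**Figure D4:**
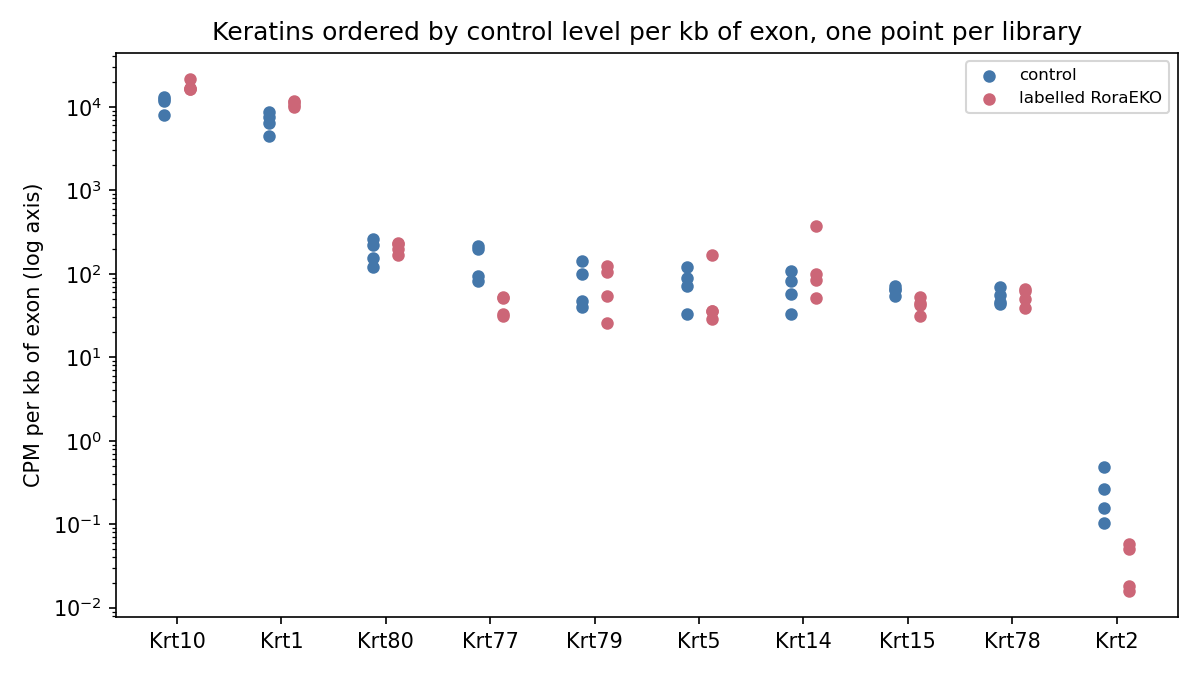
Level per kb of exon (CPM per kb, log axis) of the 10 keratins, ordered by the control mean, with 1 point per library (control in blue, labelled RoraEKO in red). *Krt10* and *Krt1* lie far above the 7 members that follow, and *Krt2* lies far below them.

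Keratin genes outside the members were read on the same scale. Of 44 other keratin genes, 34 were tested, and 3 were higher and 0 lower past the cutoffs in the edgeR quasi-likelihood test, with 7 at an unadjusted p under 0.05 and 6 called by DESeq2. All 3 belong to the stress keratins of wounded or hyperproliferative epidermis. *Krt16* was at 155.4 ± 44.7 and 1523 ± 731.6 CPM (SD, n = 4; log2 fold change 3.29, SE 0.38, adjusted p = 0.000911), *Krt6b* at 5.58 ± 6.21 and 137.4 ± 146.9 CPM (log2 fold change 4.61, SE 0.966, adjusted p = 0.0183) and *Krt6a* at 6.94 ± 3.25 and 43.5 ± 45 CPM (log2 fold change 2.64, SE 0.722, adjusted p = 0.044). *Krt16* passed in every alternative. The sizes of the other two moved with single libraries. The log2 fold change of *Krt6b* was 3.52 without RoraEKO replicate B4, 5.80 without control C6 and 6.24 without controls C1 and C6, and that of *Krt6a* was 1.60 without B4. The *Krt6b* call was lost without control B1 (adjusted p = 0.0676) or C1 (0.0647). The *Krt6a* call was lost without any 1 of the 4 controls (adjusted p from 0.0522 to 0.124), without RoraEKO replicates C2 (0.0521) or C3 (0.0626), without controls C1 and C6 (0.19), with *Xist* as a covariate (0.153), with the robust form of the test (0.0596) and with the letter of the library title as a block (0.069). *Krt17*, the fourth stress keratin, had a log2 fold change of 0.18 (adjusted p = 0.847). Of the 8 inner root sheath and 16 hair keratins 0 passed with the same test, with 0 at an unadjusted p under 0.05 and 0 called by DESeq2, and the medians were -0.09 and 0.15 on the log2 scale. Of 3 tested simple epithelial keratins 0 passed as well, against 2 at an unadjusted p under 0.05 and 1 with DESeq2, and of 3 tested remaining keratins 0 passed, against 2 and 2. Those with the most counts in the controls, not corrected for length, were *Krt71* (7934 CPM), *Krt27* (3326 CPM) and *Krt25* (2414 CPM) of the inner root sheath, so hair follicle RNA was part of the sample. Along chromosome 15, *Krt77* was the only tested keratin gene past the cutoffs in the lower direction, while its neighbour *Krt1*, 19 kb away by start site, lay in the other direction and *Krt76* was at 0.0332 and 0.0103 CPM and not tested.

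**Figure D5:**
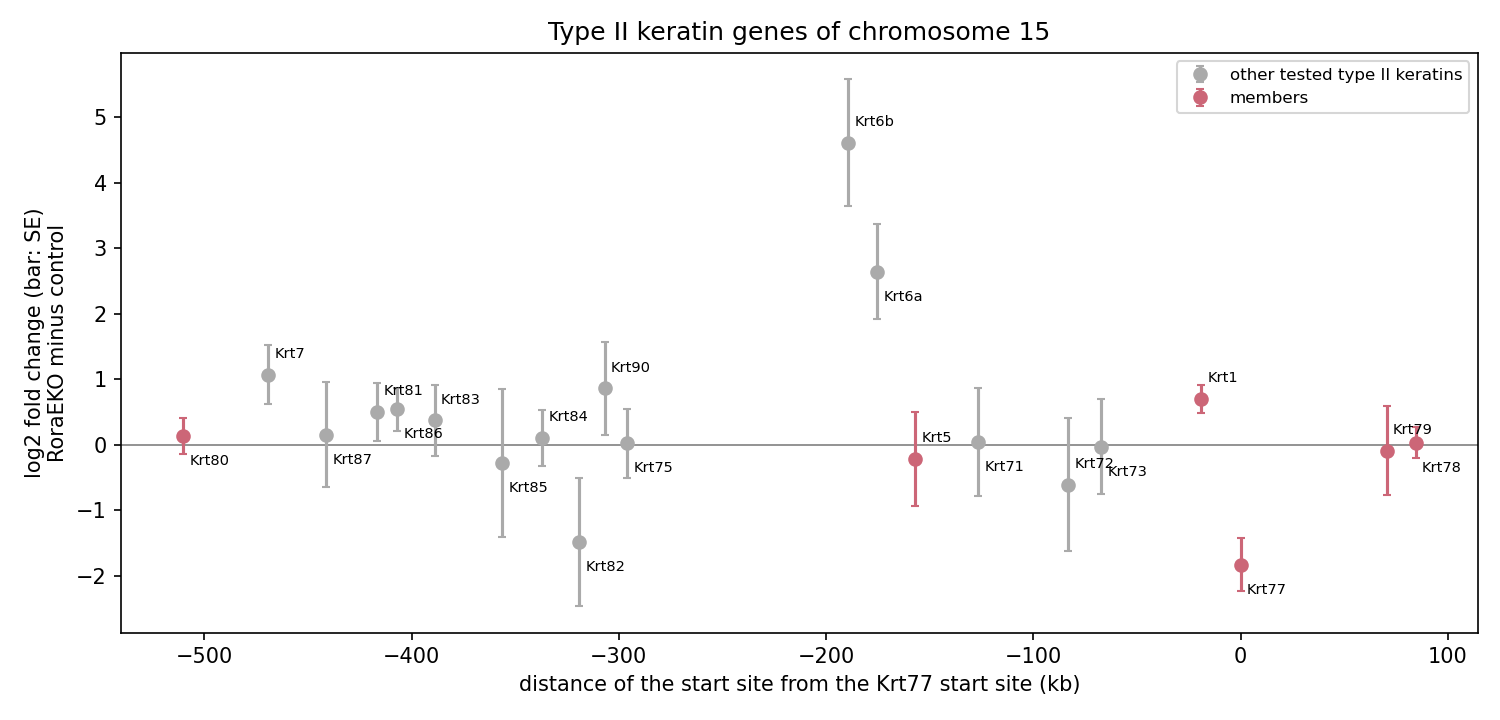
Log2 fold change (RoraEKO minus control, bars SE) of the tested keratin genes of chromosome 15, placed by the distance of their start site from that of *Krt77* in kb, with members in red and other keratins in grey. *Krt77* is at -1.83, its neighbour *Krt1* at 0.70, and *Krt6b* and *Krt6a* at 4.61 and 2.64.

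Marker genes of the layers in which the members lie were examined beside them, from lists that hold none of the 10. Of 10 spinous markers 0 passed the cutoffs with the edgeR quasi-likelihood test, 0 had an unadjusted p under 0.05 and 0 were called by DESeq2, with a median log2 fold change of -0.01 and summed levels of 14096 to 17337 CPM in the controls and 12970 to 17404 CPM in the libraries labelled RoraEKO. *Sbsn*, suprabasin, had a log2 fold change of -0.04 (adjusted p = 0.958) and *Calm4*, a calmodulin-like protein of the epidermis, 0.13 (adjusted p = 0.838). Of 10 granular markers 1 passed, *Hrnr*, the S100 fused-type protein hornerin, at 1284 ± 601 CPM in the controls and 344.6 ± 132.3 CPM in the libraries labelled RoraEKO (SD, n = 4; log2 fold change -1.90, SE 0.467, adjusted p = 0.0211). This call was lost without control B1 (adjusted p = 0.0578), without RoraEKO replicates C2 (0.0547) or C3 (0.0728), without controls C1 and C6 (0.113) and with *Xist* as a covariate (0.102). At an unadjusted p under 0.05 there were 3 granular markers, DESeq2 called 3, and 4 had genotypes that did not overlap, against 12.9% of all genes tested. The other 3 of these 4 lay in the opposite direction to *Hrnr*. *Tgm1*, a transglutaminase of the cornified envelope, had a log2 fold change of 0.70 (SE 0.188, adjusted p = 0.0578), *Casp14*, a protease of cornification, one of 0.64 (SE 0.127, adjusted p = 0.0717) and *Tgm3*, another transglutaminase, one of 0.46 (SE 0.241, adjusted p = 0.294). *Tgm1* and *Casp14* did pass with the letter of the library title as a block (adjusted p = 0.0424 and 0.0354), with DESeq2 (0.00325 and 0.000565), with the exact test (0.016 and 0.0166) and the likelihood ratio test of edgeR (0.0156 and 0.0162) and with TMM factors computed without the 10 keratins (0.0436 and 0.0492). *Tgm1* also passed with RLE size factors (0.0491) and without control A1 (0.0309). *Asprv1*, a protease that acts on profilaggrin, had a log2 fold change of -0.06 (adjusted p = 0.943) and *Loricrin*, the main cornified envelope protein, -0.20 (adjusted p = 0.709), and the list had a median of -0.02. Among 20 transcription factors that act in epidermal layers 1 passed, *Gata3*, at 126.4 ± 36.3 and 74.3 ± 8.64 CPM (SD, n = 4; log2 fold change -0.77, SE 0.209, adjusted p = 0.0493). The list had a median of 0.07, with 3 at an unadjusted p under 0.05 and 1 called by DESeq2. The genotypes did not overlap for 4 of the 20, against 12.9% of all genes tested. The *Gata3* call was lost without controls C1 and C6 (adjusted p = 0.0887) and in 7 of the 8 fits that leave out 1 library, all but that without control C6. In 6 of these 7 the adjusted p was from 0.0815 to 0.181, and without control A1 the change was too small (log2 fold change -0.55). With RLE size factors, with TMM factors computed without the 10 keratins and with either other filter on low counts the adjusted p was from 0.0524 to 0.0682. *Klf4*, which acts in late differentiation, had a log2 fold change of 0.27 (adjusted p = 0.448) and *Grhl1*, a regulator of desmosomal cadherins, -0.22 (adjusted p = 0.42).

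The proteins that tie keratin filaments to desmosomes and hemidesmosomes were read beside the members. Of 10 such genes 0 passed with the edgeR quasi-likelihood test, 0 had an unadjusted p under 0.05, 0 were called by DESeq2 and 7 were above 0, with a median log2 fold change of 0.22. Their summed level was 7776 to 8511 CPM in the controls and 9151 to 11664 CPM in the libraries labelled RoraEKO, again highest in B4. *Dsp*, desmoplakin, the main anchor of keratin filaments at desmosomes, had a log2 fold change of 0.19 (SE 0.114, adjusted p = 0.679), *Pkp1*, plakophilin 1, one of 0.35 (SE 0.175, adjusted p = 0.435) and *Jup*, plakoglobin, one of 0.37 (SE 0.11, adjusted p = 0.277), and of these only *Jup* had genotypes that did not overlap.

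Markers of other cells in the tissue were examined for the same libraries. In the follicle, the upper hair follicle list to which *Krt79* relates had summed levels of 1158 to 2446 CPM in the controls and 1589 to 2458 CPM in the libraries labelled RoraEKO, and 0 of 10 genes passed (edgeR quasi-likelihood test, with 1 at an unadjusted p under 0.05 and 0 called by DESeq2). Hair shaft and inner root sheath markers ran from 8535 to 51293 CPM in the controls and from 15945.5 to 35115 CPM in the libraries labelled RoraEKO, sebocyte markers from 244.4 to 546.8 and from 208.2 to 358.2 CPM, and 0 of 10 passed in each, at an unadjusted p under 0.05 and with DESeq2 as well. Control A1, with the lowest *Krt1* and *Krt10* levels and the highest *Krt79* level, had the highest hair shaft and sebocyte sums of all libraries. Dermal fibroblast markers summed to 10.4 CPM or less and endothelial markers to 5.01 CPM or less in every library. Erythroid markers ran from 47.9 to 334.3 CPM in the controls and from 125 to 1041.8 CPM in the libraries labelled RoraEKO, highest in C2, and 0 of 5 tested genes passed, with 4 at an unadjusted p under 0.05 and 0 called by DESeq2. Melanocyte, T cell, Langerhans cell, skeletal muscle and adipocyte lists had 0 genes past the cutoffs as well, with 3, 1, 0, 0 and 0 at an unadjusted p under 0.05 and 1 melanocyte gene called by DESeq2, and with summed levels of 50.4 to 141.8, 27.1 to 66, 220.9 to 291.9, 4.31 to 10 and 59.4 to 301 CPM over the 8 libraries. Median log2 fold changes were -0.82 for melanocyte, 0.48 for T cell and -0.44 for Langerhans cell genes. Of 6 genes each, 5 melanocyte genes lay below 0, 6 T cell genes above 0 and 4 Langerhans cell genes below 0. The medians were 0.06 over 2 tested skeletal muscle genes and -0.06 for 1 tested adipocyte gene. The part of follicle content in the keratin values was not tested.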

How the data were processed

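RNA was measured by stranded poly(A) RNA-seq in 8 libraries. The authors used Skewer for trimming, STAR 2.5.3a for mapping to GRCm39 and RSEM for counting, and the deposited values are unscaled expected counts per gene. The annotation release and the strand setting of the counting are not given in the sources used here. All 8 columns were mapped by their titles.

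Expected counts were rounded to whole numbers. Symbols and positions came from the mouse GENCODE annotation. After the filterByExpr filter and TMM scaling, the genotypes were compared with edgeR 4.0.16 (R 4.3.3, legacy form of the quasi-likelihood test), and p-values were adjusted by Benjamini-Hochberg over 13147 genes. A gene passed at adjusted p 0.05 with a fold change of 1.5. SEs are those of the difference in mean log2 CPM (prior count 2), and 95% intervals come from limma 3.58.1. The study gives 4 mice per genotype. Shares of counts have Wilson intervals. Ratios were tested by exact permutation in scipy 1.17.1. Scripts were tested on simulated data.

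The members and the lists were chosen with earlier results of these data known. Named genes were all members, other keratins past the cutoffs and the 3 with the most counts in the controls, and of each list the genes past the cutoffs and up to 2 with the most counts. *Jup*, *Krt17*, *Tgm1*, *Casp14* and *Tgm3* fall outside this rule and were named after their values were seen. Alternatives were other scalings, filters, tests, covariates and cutoffs, and each library left out. Protein sequences were not used here.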

Additional observations from a re-analysis of the deposited data

Results flagged for a closer look

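In 40 groups of 4 libraries, 4 values stood far from the other 3 of their genotype by Dixon's test and all 4 were in RoraEKO replicate B4. Chance flags about 1 in 20 groups. *Krt5* was at 371 CPM in B4 and at 63.4 to 78.1 CPM in the other 3. *Krt14* was at 705.7 CPM in B4 and at 96.2 to 186.8 CPM in the others. *Krt10* was at 46176 CPM in B4 and at 34246 to 35454 CPM in the others. The log2 ratio of *Krt1* to *Krt5* was 7.14 in B4 and 9.14 to 9.53 in the others. The 4 values share a library, and *Krt5* enters 2 of them, so they are not independent. Replicate B4 also had the lowest mitochondrial share of the 8 libraries (13.6%), the highest summed level of the basal markers (170.5 CPM) and the highest *Krt16* level (2609.5 CPM), and the part of these in its keratin values was not tested.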

How the results depend on the processing

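The number of the 9 tested keratins past the cutoffs was 1, and it became 0 at an adjusted p of 0.01, with *Xist* as a covariate and without controls C1 and C6, 2 with all genes of at least 1 count (where *Krt2* was tested), with the likelihood ratio test and with the exact test, and 3 with DESeq2, and it ran from 0 to 1 with each library left out. *Krt77* kept its direction in all 23 alternatives and was called in 19. Signs changed for small differences: *Krt78* was at -0.02 with library size alone, *Krt79* at 0.02 with the title letter as a block, and *Krt80* at -0.21 with *Xist* as a covariate and -0.16 without controls C1 and C6. With each library left out, log2 fold changes ran from -1.23 to 0.10 for *Krt5*, -0.06 to 0.21 for *Krt78*, -0.03 to 0.33 for *Krt80* and -0.41 to 0.31 for *Krt79*. Genes higher over the whole table numbered 131 at an adjusted p of 0.01, 478 with DESeq2, 174 with *Xist* as a covariate and 147 without controls C1 and C6, and 174 to 383 with each library left out. Genes lower numbered 231 at an adjusted p of 0.01, 167 without controls C1 and C6 and 283 to 513 with each library left out. Other keratins past the cutoffs, 3 in the main test, numbered 1 at an adjusted p of 0.01, 5 with the likelihood ratio test, 6 with DESeq2 and 1 to 7 with each library left out. Genes of the layer and cell type lists past the cutoffs, 2 in the main test, numbered 0 at an adjusted p of 0.01 and without controls C1 and C6, 1 with all genes of at least 1 count, with at least 10 counts in every library and with *Xist* as a covariate, 4 with the exact test, 5 with the likelihood ratio test, with DESeq2 and with the title letter as a block, and 0 to 5 with each library left out. The title letter is not explained in the labels. The cause of these shifts was not tested. The share of the 10 keratins differed by 2.96 percentage points, and by 2.21 to 3.37 with each library left out. Both other lengths kept 6 of the 10 genes in place in the order per kb. The number of ratios without overlap was 4, and 4 to 5 with each library left out. With the title letter as a block 420 genes were higher and 579 lower, and *Krt77* was the 1 member called. Depth limits *Krt2* alone among the members.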
